A study of Mus musculus with 92 samples.

Results

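The genes described here are the 158 expressed members of the mouse Zfp series, genes whose symbol is Zfp followed by a number. They were taken from 56953 genes by 2 criteria. The symbol had to have that form, with Zfp42, Zfp365 and Zfp622 left out, and the level had to be at least 15 CPM (counts scaled to equal library totals) as a mean over the 12 RNA-seq libraries. Of 400 symbols of that form, 239 lay below the level. The members were thus selected on their measured mean level, which is given only as a description. Just inside it stood Zfp941 (15.1 CPM), Zfp526 (15.3 CPM) and Zfp446 (15.4 CPM), and just outside Zfp523 (14.996 CPM), Zfp667 (14.988 CPM) and Zfp383 (14.744 CPM). The choice also followed earlier results of these data.

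Most Zfp proteins carry an array of C2H2 zinc fingers, small zinc-holding loops that read DNA, and less often RNA. The largest class also carries a KRAB domain, which recruits the corepressor TRIM28 and the histone methyltransferase SETDB1. In mouse embryonic stem cells such KRAB zinc finger proteins are known for silencing endogenous retroelements and for keeping DNA methylation at imprinted regions. Many of their genes lie side by side in clusters that arose by local duplication. GABP, the factor removed in the experiment, is an ETS transcription factor made of GABPA, which binds DNA at a GGAA core, and GABPB1 or GABPB2, which carry the activation domain.

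All cells were mouse embryonic stem cells of the line B6, grown with serum, LIF and the inhibitors PD0325901 and CHIR99021. The GABPA line had the genotype GabpadTAG/dTAG, the GABPB1/GABPB2 line Gabpb1/b2dTAG/dTAG and the GABPB1 line Gabpb1dTAG/dTAG. The dTAG degron marks the fused protein for degradation when the small molecule dTAG-13 is added. The treated groups received 500 nM dTAG-13 and their controls the solvent DMSO, so that the controls carried the tagged alleles too. The labels do not say whether a line came from 1 clone. Polyadenylated RNA-seq compared the treatments at 12 h in all 3 lines. SLAM-seq compared them in the GABPA line at 1, 2, 4 and 12 h. It labels new RNA with 4-thiouridine (500 µM), which is read as T-to-C conversions, so a converted read comes from RNA made during labelling. At 2 h and at 4 h dTAG-13 was set against the same DMSO group, titled 2-4h, so those 2 comparisons share controls. Every group had 2 libraries, called biological duplicates in the labels.

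The depth of the RNA-seq libraries was 16.0 to 32.1 M counts. That of the SLAM-seq libraries was 11.5 to 30.7 M reads, with 0.94 to 4.25 M converted reads among them. All 9 stem cell markers were at or above 1 CPM in each RNA-seq library, with a summed level of 5310 to 6840 CPM. Markers of feeder fibroblasts summed to 3.69 to 10.4 CPM, with 2 of 7 at or above 1 CPM. Primitive endoderm markers summed to 7.37 and 5.78 CPM in dTAG-13 libraries of the GABPA line, against 4.25 and 4.95 CPM in DMSO libraries, with 2 to 3 of 5 at or above 1 CPM in the RNA-seq libraries. Markers of 2-cell-like cells summed to 0.283 to 0.749 CPM in the GABPB1 line and to 5.44 to 12.7 CPM in the other lines. The part of these marker levels in the results was not tested. Gabpa mRNA had 64.6 and 70.0 CPM in dTAG-13 libraries of the GABPA line, against 48.9 and 46.4 CPM in DMSO libraries. In DMSO libraries of the GABPB1/GABPB2 line it had 144 and 161 CPM, and in those of the GABPB1 line 142 and 143 CPM. The lines thus differed in Gabpa mRNA before dTAG-13, and the part of this in their responses was not tested. The degron acts on the protein, so these mRNA levels do not check the degradation.

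Per unit of transcript length, the Zfp genes spanned a wide range of levels. Zfp57, a KRAB protein that protects imprints, had the highest mean over the 12 RNA-seq libraries at 533 TPM, a level scaled for transcript length. Next came Zfp207, a spindle assembly factor, with 183 TPM, Zfp106, an RNA-binding protein, with 123 TPM, Zfp428 with 110 TPM and Zfp553 with 88.2 TPM. The lowest were Zfp738 (3.27 TPM), Zfp81 (3.69 TPM), Zfp729a (3.74 TPM), Zfp282 (4.58 TPM) and Zfp26 (4.61 TPM). The median member had 15.7 TPM (quartiles 9.24 and 26.6), beside 8.52 TPM (quartiles 1.5 and 30.8) over all genes tested. All 158 together took 0.881% of the RNA-seq counts.

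A large share of the reads of Zfp genes was converted. In the 14 SLAM-seq libraries the median member had a converted share 2.16 to 2.75 times that of the median gene with at least 20 reads. At 1 h the member medians were 15.2% and 14% in dTAG-13 libraries and 16.1% and 17.6% in DMSO libraries, where the medians of all genes were 6.32% and 5.87% with dTAG-13 and 6.46% and 6.91% with DMSO. At 12 h the member medians were 37.6% and 32.6% with dTAG-13 and 44.3% and 43.1% with DMSO, beside 14.6% and 11.8% for all genes with dTAG-13 and 17.1% and 16.7% with DMSO. A read with more T bases has more chances to show a conversion, and when conversions were counted per T covered the ratios were 2.05 to 2.68. Single members differed widely, from 8.16% for Zfp839 to 68.6% for Zfp955a (means of the 12 h DMSO libraries). The next highest were Zfp367 with 67.6% and Zfp987 with 67.5%, and the next lowest Zfp277 with 11.5% and Zfp106 with 12.6%. The converted share in DMSO did not separate members by their later response. Its median was 43.9% in members higher at 12 h in total RNA of the GABPA line, 44.2% in those lower and 43.8% in those not called. These shares are descriptions over genes of the same libraries.

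**Figure D1:**
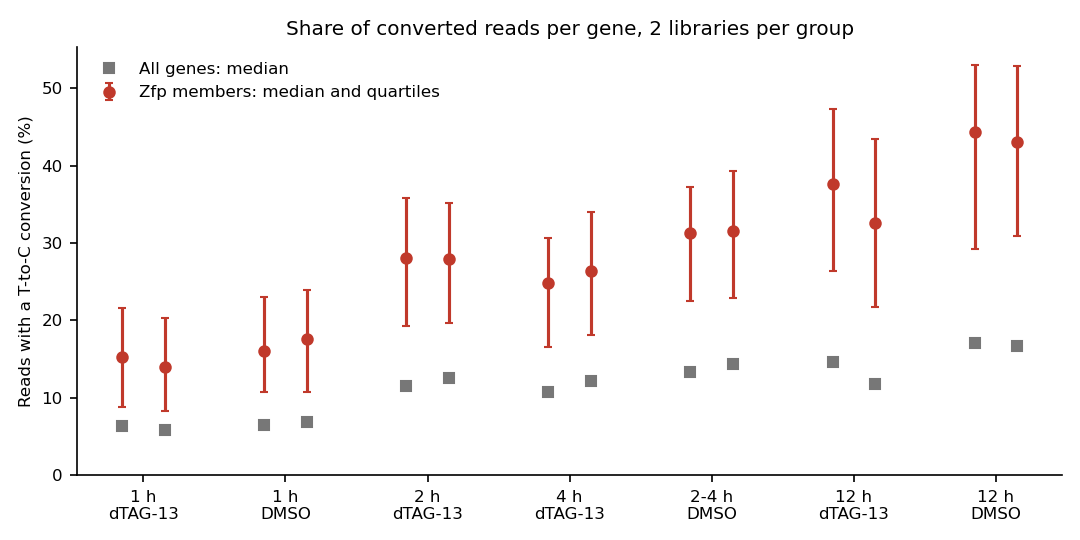
Share of reads with a T-to-C conversion per gene (vertical axis, %) in the 14 SLAM-seq libraries of the GABPA line, 2 per group. Circles with bars give the median and quartiles of the Zfp genes and squares the median of all genes with at least 20 reads. In each library the Zfp median lies above the median of all genes, for example 44.3% against 17.1% in the first 12 h DMSO library.

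After 12 h of dTAG-13 in the GABPA line, total RNA of many Zfp genes changed, in both directions. Of the 158 members, 48 rose and 56 fell (edgeR quasi-likelihood test, Benjamini-Hochberg adjusted p under 0.05), 65.8% in either direction. Among all 16396 genes tested, 24.6% rose and 21.9% fell, 46.5% in either direction. The members were selected at 15 CPM or more, and among all 7982 genes at that level 30.0% rose and 29.8% fell, 59.9% in either direction. The share of members called was thus near that of genes of their level, and the difference was not tested. The median change was -0.03 on the log2 scale for members and 0.06 for all genes. Changes beyond 2-fold were mostly decreases, with 13 members lower and 3 higher. The 3 include Zfp750, which was admitted through the libraries where it was high. The same count over all genes is not given here, so nothing particular to members is read from it. When genes with an average log2 CPM under 3 were left out, the calls were 59 higher and 50 lower, so the majority direction depended on that filter. As a share of all RNA-seq counts the members made up 0.699% to 0.705% in dTAG-13 libraries and 0.742% and 0.729% in DMSO libraries. In bulk RNA, fewer cells of a type and less RNA per cell cannot be told apart.

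The largest decrease was that of Zfp410, whose human counterpart ZNF410 is known as a dedicated activator of the chromatin remodeller gene CHD4. Zfp410 had 3.96 and 3.36 CPM in dTAG-13 libraries and 31.9 and 29.0 CPM in DMSO libraries (CPM here and below scaled by TMM, the trimmed mean of M-values). The log2 change was -3.05 (SE 0.132, adjusted p = 8.35e-12 by edgeR). In SLAM-seq 57.0% of its reads matched several places in the genome, so its new-RNA values below are less certain than most. For these RNA-seq counts the posterior spread given by RSEM was 0.0272% of the count. Chd4 itself, looked up after its values were seen, had 574 and 610 CPM in dTAG-13 libraries and 644 and 676 CPM in DMSO libraries, a log2 change of -0.16 (SE 0.0549, adjusted p = 0.0269 by edgeR).

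Zfp330, which encodes a nucleolar protein, had 7.56 and 7.90 CPM with dTAG-13 and 57.2 and 48.9 CPM with DMSO, a log2 change of -2.78 (SE 0.107, adjusted p = 2.24e-12 by edgeR). Zfp408, whose human counterpart is mutated in inherited retinal vascular disease, had 6.13 and 6.07 CPM with dTAG-13 and 32.8 and 32.5 CPM with DMSO (log2 change -2.42, SE 0.112). In both genes both dTAG-13 libraries lay far below both DMSO libraries. Zfp865 had 6.44 and 5.01 CPM with dTAG-13 and 26.5 and 28.0 CPM with DMSO (log2 change -2.25, SE 0.139). Zfp266 had 11 and 11.7 CPM with dTAG-13 and 46.4 and 39.4 CPM with DMSO (log2 change -1.91, SE 0.113). Zfp384, a nuclear matrix protein first studied in bone, had 32.3 and 32.4 CPM with dTAG-13 and 106 and 108 CPM with DMSO (log2 change -1.73, SE 0.0708). The groups of these genes did not overlap.

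Members with smaller decreases included genes with known roles in other processes. Zfp598, the ubiquitin ligase that acts on collided ribosomes, had 77.3 and 69.5 CPM with dTAG-13 and 155 and 165 CPM with DMSO (log2 change -1.13, SE 0.0789). Zfp24, a SCAN-domain factor needed for myelination, had 17.2 and 20.9 CPM with dTAG-13 and 42.8 and 38.3 CPM with DMSO (log2 change -1.08, SE 0.102). Zfp990, Zfp26, Zfp407 and Zfp930 completed the 12 members with the largest decreases, with log2 changes of -1.30, -1.25, -1.11 and -1.05. All 12 kept their calls when any 1 library of the comparison was left out.

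Zfp750, known from human skin as a driver of epidermal differentiation, had the highest log2 change, but the selection admitted it through the libraries where it was high. Its mean was 15.5 CPM over all 12 libraries and 10.5 CPM without the 2 dTAG-13 libraries of the GABPA line. Zfp282 was the other such member (17.2 and 13.3 CPM). The change of both in total RNA of this line, and its difference from the other lines, is therefore given as a description. So is the rise of Zfp750 in new RNA at 12 h, from other libraries of the same line and treatment. Over the DMSO libraries alone Zfp526, Zfp65 and Zfp941 also had a mean under 15 CPM. The dTAG-13 libraries thus helped to admit them, and any increase of theirs below is a description too. Zfp750 had 46.7 and 39.9 CPM in dTAG-13 libraries and 5.94 and 4.40 CPM in DMSO libraries, a log2 change of 3.08 (SE 0.139). The gene lies inside Tbcd on the opposite strand, and no source used here says whether the counting used strand, so reads of the pair may be mixed. Tbcd had 119 and 112 CPM with dTAG-13 and 95.1 and 101 CPM with DMSO (log2 change 0.23, adjusted p = 0.00543 by edgeR). The fold change of Zfp750 was thus far larger than that of Tbcd.

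Zfp874a had 39.6 and 40.1 CPM with dTAG-13 and 15.6 and 12.4 CPM with DMSO (log2 change 1.52, SE 0.122). Zfp385a, an RNA-binding protein and p53 target, had 70.4 and 63.2 CPM with dTAG-13 and 25.3 and 28.6 CPM with DMSO (log2 change 1.31, SE 0.0867). Zfp738 had 14.7 and 18.9 CPM with dTAG-13 and 9.04 and 8.94 CPM with DMSO (log2 change 0.90, SE 0.174). The dTAG-13 libraries of these 3 genes all lay above the DMSO libraries. Zfp317 had 68.0 and 73.6 CPM with dTAG-13 and 38.6 and 41.1 CPM with DMSO (log2 change 0.83, SE 0.0731). Zfp777 had 81.0 and 76.4 CPM with dTAG-13 and 45.7 and 46.9 CPM with DMSO (log2 change 0.76, SE 0.0747). Zfp74, Zfp729a, Zfp65, Zfp354c, Zfp799 and Zfp526 rose by 0.63 to 0.80 on the log2 scale. Of the 12 members with the largest increases, Zfp65 lost its call without the second DMSO library (adjusted p = 0.0504 by edgeR).

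**Figure D2:**
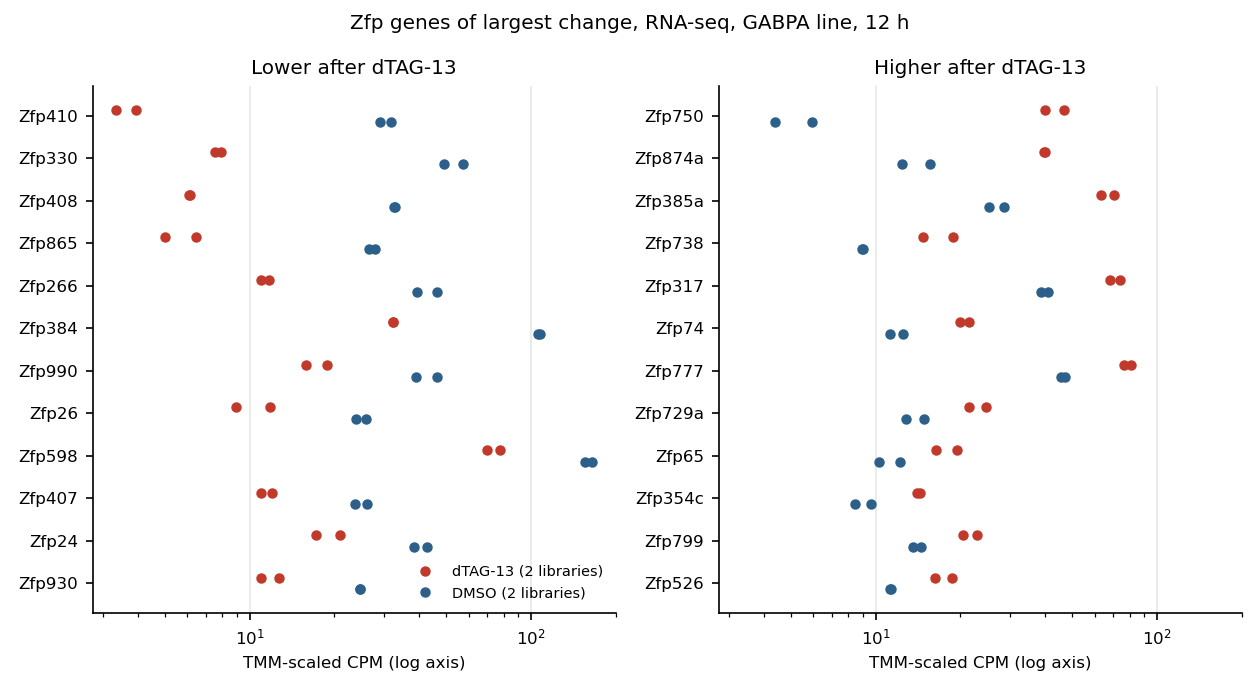
TMM-scaled CPM (horizontal log axis) of the 12 Zfp genes with the largest decrease and the 12 with the largest increase in RNA-seq of the GABPA line at 12 h. Each point is 1 library, 2 with dTAG-13 and 2 with DMSO per gene. The 2 groups do not overlap for any gene shown, since the rule that chose them asked for this, and Zfp410 and Zfp750 lie farthest apart.

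GABPA reads DNA as other ETS factors do, and the promoters of several genes named above were searched for its sequence. RefSeq promoters of the build GRCm38.p6, each of 300 bases (250 before to 50 after the annotated start), were found by symbol for 123 of the 158 members. Zfp410, Zfp865, Zfp24, Zfp407, Zfp990, Zfp930 and Zfp750 were not among them. The sequences below run 5′ to 3′ on the strand of the gene, and capitals mark CGGAAG or its reverse complement CTTCCG, extended to CCGGAAG or CTTCCGG where the extra base is present. They are shown because Zfp330, Zfp408 and Zfp266 led the decreases in total RNA and were lower early in new RNA, and Zfp445 was lower there from 2 h. The windows lie at chr8:82774096-82774395 (minus strand) for Zfp330, chr2:91649742-91650041 (minus strand) for Zfp408, chr9:122865957-122866256 (minus strand) for Zfp445 and chr9:20521370-20521669 (minus strand) for Zfp266.
Zfp330: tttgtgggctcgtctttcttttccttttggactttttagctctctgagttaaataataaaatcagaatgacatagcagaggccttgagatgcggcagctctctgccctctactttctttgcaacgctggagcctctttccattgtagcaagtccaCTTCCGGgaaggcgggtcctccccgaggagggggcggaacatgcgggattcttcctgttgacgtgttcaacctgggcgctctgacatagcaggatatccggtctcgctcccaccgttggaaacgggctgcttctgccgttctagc
Zfp408: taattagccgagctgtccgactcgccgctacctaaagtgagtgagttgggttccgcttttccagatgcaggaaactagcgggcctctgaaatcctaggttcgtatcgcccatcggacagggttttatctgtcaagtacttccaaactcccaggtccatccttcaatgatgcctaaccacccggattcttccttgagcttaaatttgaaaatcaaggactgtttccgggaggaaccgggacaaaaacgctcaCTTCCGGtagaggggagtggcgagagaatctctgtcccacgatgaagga
Zfp445: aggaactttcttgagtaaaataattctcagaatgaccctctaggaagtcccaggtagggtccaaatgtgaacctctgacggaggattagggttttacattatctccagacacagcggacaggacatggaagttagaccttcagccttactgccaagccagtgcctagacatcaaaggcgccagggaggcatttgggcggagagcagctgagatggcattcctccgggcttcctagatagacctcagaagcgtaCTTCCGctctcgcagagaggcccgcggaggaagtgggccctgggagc
Zfp266: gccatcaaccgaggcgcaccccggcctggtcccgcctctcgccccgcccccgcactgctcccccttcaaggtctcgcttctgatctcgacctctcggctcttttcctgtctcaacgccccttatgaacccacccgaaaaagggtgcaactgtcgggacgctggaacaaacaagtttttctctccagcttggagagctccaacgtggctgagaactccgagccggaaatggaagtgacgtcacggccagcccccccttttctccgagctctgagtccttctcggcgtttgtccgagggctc

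In Zfp330 the match begins 95 bases before the annotated start, in Zfp408 1 base after it and in Zfp445 3 bases after it. Zfp266 has no match to CGGAAG on either strand in this window, though the window holds the shorter GGAAG, which most genes have (below). Over all 27025 genes with a promoter in the table, 9.93% had CCGGAAG on either strand, and among members 25 of 123 (20.3%) did. Those 27025 include genes too low to be tested. Of the genes tested in RNA-seq, 2147 had CCGGAAG and 9183 did not, a share close to that of members. The shorter CGGAAG, which every CCGGAAG holds, was present in 18.8% of the 27025 genes and 36.6% of members. GGAAG, held by both, was present in 73.9% of the 27025 genes and 83.7% of members. Among members with CCGGAAG, 10 of 25 (40.0%) fell in total RNA of the GABPA line and 2 (8.00%) rose. Among the 98 members without it, 30 (30.6%) fell and 39 (39.8%) rose. Over all genes tested the shares lower were 50.6% with the motif and 17.9% without it, and the shares higher 13.6% and 30.0%. A match describes these letters and is no measured binding site.

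The Zfp genes are given next by known role, in total RNA of the GABPA line. The counts of these short lists stand beside the 24.6% of all genes that rose and the 21.9% that fell there, the 65.8% of members called and the 0.06 median of all genes, and nothing particular to a list is read from them. Of 12 genes listed as acting on RNA or ribosomes, 11 were members, of which 6 rose and 3 fell, with a median log2 change of 0.21. Those higher were Zfp385a, Zfp346, which binds double-stranded RNA (0.43), Zfp207 (0.39), Zfp326 (0.33), Zfp638, which silences unintegrated retroviral DNA together with the HUSH complex (0.22), and Zfp106 (0.21). Those lower were Zfp330, Zfp598 and Zfp830 (-0.36). Zfp706 (-0.06) and Zfp593 (0.05) did not pass the test. The members of this list thus moved both ways.

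Partners of chromatin complexes gave 12 members of 13 listed, of which 1 rose and 4 fell, with a median of -0.03. Zfp644, a partner of the histone methyltransferases G9a and GLP, had 37.5 and 41.7 CPM with dTAG-13 and 29.0 and 25.3 CPM with DMSO (log2 change 0.55, SE 0.117). Zfp518b, which acts with the same enzymes, had 39.6 and 49.6 CPM with dTAG-13 and 67.6 and 71.9 CPM with DMSO (log2 change -0.64, SE 0.0976). These 2 partners of G9a and GLP moved in opposite directions. Zfp687, of the complex with Zfp592 and Zfp532, fell (-0.64), as did Zfp516 (-0.44) and Zfp335 (-0.23).

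Promoter-binding factors gave 9 members of 10 listed, of which 2 rose and 3 fell, with a median of -0.08. Zfp143, which binds promoters and takes part in chromatin looping, had 45.1 and 44.8 CPM with dTAG-13 and 31.8 and 34.0 CPM with DMSO (log2 change 0.45, SE 0.0798). Zfp652 rose by 0.38 on the log2 scale. Those lower were Zfp410, Zfp384 and Zfp740 (-0.16). Of the 3 ubiquitin or SUMO ligases, Zfp451, a SUMO ligase, rose (0.35), Zfp598 fell and Zfp91 (0.15) did not pass the test.

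The KRAB repressors of imprints and retroelements gave 5 members of 7 listed, of which 1 rose and 2 fell. Zfp445, which maintains imprints, had 39.6 and 44.6 CPM with dTAG-13 and 75.2 and 73.4 CPM with DMSO (log2 change -0.82, SE 0.0745). Zfp568, which represses a placental transcript of Igf2, had 121 and 133 CPM with dTAG-13 and 224 and 212 CPM with DMSO (log2 change -0.78, SE 0.0632). Both fell by a similar amount, with no overlap between groups. Zfp57, which also maintains imprints, had 645 and 570 CPM with dTAG-13 and 559 and 566 CPM with DMSO (log2 change 0.11, adjusted p = 0.136 by edgeR). Zfp809, which silences proviruses, rose by 0.35 on the log2 scale, and Zfp819 (-0.21) did not pass the test.

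New RNA changed in few Zfp genes during the first hours. At 1 h of dTAG-13, 5 of the 157 members tested in SLAM-seq were lower and 0 higher (edgeR quasi-likelihood test), beside 1.72% lower and 0.0567% higher (1.78% in either direction) of 15887 genes. Among genes of 15 CPM or more 2.43% were lower and 0.0635% higher, beside 3.18% of members lower. At an unadjusted p under 0.05 the test gave 23 members lower and 2 higher, and DESeq2 also called 0 higher. Zfp330 had 23.7 and 27.3 CPM of converted reads with dTAG-13 and 72.2 and 79.3 CPM with DMSO (log2 change -1.58, SE 0.255, adjusted p = 0.000811 by edgeR). Zfp24 had 71.0 and 89.3 CPM with dTAG-13 and 165 and 175 CPM with DMSO (log2 change -1.09, SE 0.198). Zfp930 had 71.0 and 54.6 CPM with dTAG-13 and 142 and 144 CPM with DMSO (log2 change -1.18, SE 0.223). Zfp7 (-1.19) and Zfp266 (-1.07) were the other 2. In these 5 genes both dTAG-13 libraries were below both DMSO libraries. Zfp330 kept its call without any 1 library, whereas the other 4 each lost theirs in at least 1 case. The count of 5 fell to 3 without the first DMSO library, to 2 without the first dTAG-13 library and to 3 without the second dTAG-13 library.

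At 2 h, 8 members were lower and 0 higher, beside 3.21% lower and 0.145% higher (3.35% in either direction) of all genes. Among genes of 15 CPM or more 4.67% were lower and 0.0508% higher, beside 5.1% of members lower. At an unadjusted p under 0.05 the counts were 21 lower and 4 higher, and DESeq2 called 6 lower and 0 higher. The 5 genes of 1 h were all among the 8, joined by Zfp408, Zfp410 and Zfp445. Zfp410 had 22.1 and 24.3 CPM with dTAG-13 and 57.8 and 78.5 CPM with DMSO (log2 change -1.56, SE 0.267). Zfp408 had 1.84 and 2.14 CPM with dTAG-13 and 12.7 CPM in each DMSO library (log2 change -2.64, SE 0.543). Zfp445 had 27 and 31.4 CPM with dTAG-13 and 52.9 and 63.7 CPM with DMSO (log2 change -1.0, adjusted p = 0.0462 by edgeR). The count of 8 fell to 5 without the second DMSO library, without the first dTAG-13 library, where 1 member was called higher, or without the second dTAG-13 library.

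At 4 h, 10 members were lower and 1 higher, beside 3.91% lower and 0.113% higher (4.02% in either direction) of all genes. Among genes of 15 CPM or more 5.78% were lower and 0.0762% higher, beside 6.37% of members lower. The 10 members lower were the 8 of 2 h, set against the same DMSO libraries, with Zfp568 and Zfp990 added. Zfp568 had 108 and 97.3 CPM with dTAG-13 and 182 and 163 CPM with DMSO (log2 change -0.75, SE 0.177). Zfp410 had 11.8 and 22.7 CPM with dTAG-13 and 57.8 and 78.5 CPM with DMSO (log2 change -1.93, SE 0.291). Zfp408 was down to 3 converted reads over both dTAG-13 libraries against 48 over both DMSO libraries, a ratio of 0.0992 after scaling (95% interval 0.0198 to 0.308, for counting error only). The gene called higher was Zfp65, with 43.4 and 41.7 CPM with dTAG-13 and 19.3 and 22.9 CPM with DMSO (log2 change 1.0, SE 0.261, adjusted p = 0.0245 by edgeR). It lost the call without either library of either group, which left 0 members higher. The count lower fell to 6 without the first or without the second dTAG-13 library.

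At 12 h the responses in new RNA were larger and more numerous. Of 157 members, 45 were lower and 16 higher, beside 18.3% lower and 12.3% higher (30.6% in either direction) of all genes. Among genes selected at the same level as the members 22.3% were lower and 13.7% higher. By more than 2-fold 24 members were lower, a count given without its share of all genes. The median change was -0.27 for members and 0.04 for all genes. Zfp410 had 7.94 and 10.2 CPM with dTAG-13 and 114 and 111 CPM with DMSO (log2 change -3.67). Zfp330 had 9.15 and 10.2 CPM with dTAG-13 and 102 and 80.7 CPM with DMSO (log2 change -3.25). Zfp266 had 26.7 and 20.4 CPM with dTAG-13 and 124 and 139 CPM with DMSO (log2 change -2.44). In each of the 3 the dTAG-13 libraries were far below the DMSO libraries. Zfp750, given as a description for the reason above, had 56.3 and 55.6 CPM with dTAG-13 and 8.78 and 7.22 CPM with DMSO (log2 change 2.80). Zfp385a had 16.1 and 13 CPM with dTAG-13 and 3.70 and 3.16 CPM with DMSO (log2 change 2.09, SE 0.507). Zfp874a, Zfp777 and Zfp738 rose too (1.28, 1.20 and 1.03). Among the 5 KRAB repressors of imprints and retroelements, 3 fell, Zfp819 (-1.21), Zfp568 (-1.13) and Zfp445 (-1.09). The count higher was less stable than the count lower. It was 6 without the first DMSO library, 9 without the second DMSO library and 8 without the first dTAG-13 library, and DESeq2 called 7 higher and 38 lower.

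The change at 12 h differed from that at 1 h in 13 members, 12 more negative and 1 more positive, beside 4.70% and 2.14% (6.84% in either direction) of all genes. The shares among genes of 15 CPM or more were 6.73% and 2.27% (9.0% in either direction), beside 8.28% of members called. Both times had their own DMSO group. The difference was -2.91 (SE 0.396) for Zfp410, -1.96 (SE 0.326) for Zfp407, a zinc finger protein known from adipocytes, -1.67 (SE 0.360) for Zfp330, -1.41 (SE 0.304) for Zfp819 and -1.36 (SE 0.318) for Zfp266. Zfp407 changed by -1.75 at 12 h and 0.21 at 1 h in converted reads, but with all reads in place of converted reads its difference turned to 0.07. For Zfp750 it was 2.39 (SE 0.612, adjusted p = 0.018 by edgeR), a call that was lost in 4 of the fits that left out 1 library. RNA-seq libraries of the same line and treatment at 12 h admitted Zfp750, so its value here is a description. Zfp266 lost its call in 2 such fits (adjusted p = 0.068 and 0.0602 by edgeR) and Zfp819 in 1 (adjusted p = 0.0539 by edgeR). The count of 13 was 7 without either first library at 1 h, 8 without the second DMSO and 5 without the second dTAG-13 library at 1 h. It was 7 without the second DMSO and 8 without the second dTAG-13 library at 12 h.

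**Figure D3:**
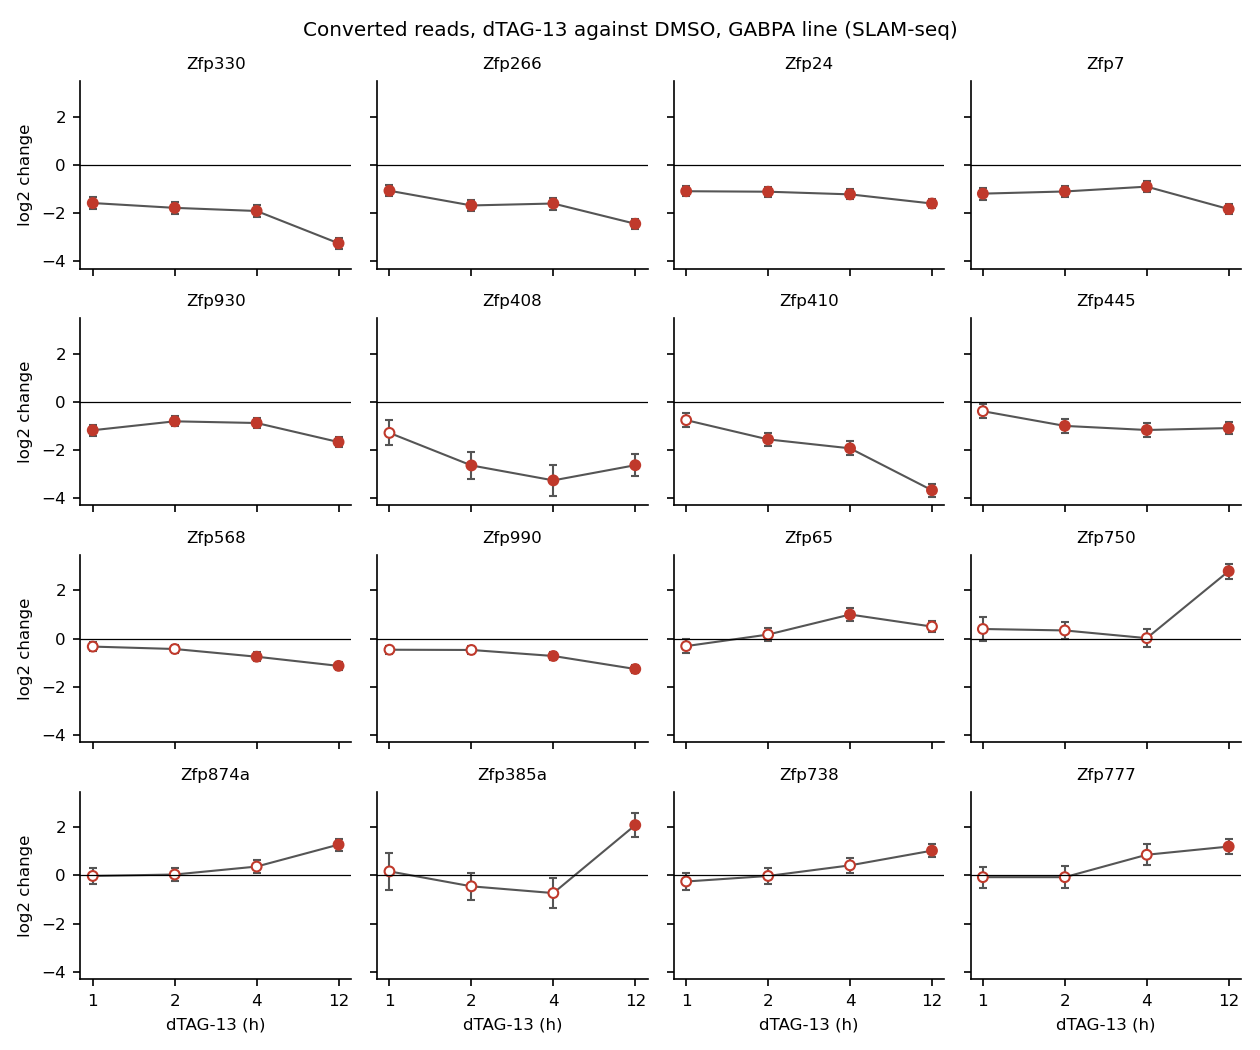
Change of converted reads in the GABPA line (vertical axis, log2 of dTAG-13 over DMSO, with bars for the SE) at 1, 2, 4 and 12 h for 16 Zfp genes named by their calls. Filled points passed an adjusted p of 0.05 and open points did not, and 2 h and 4 h share their DMSO libraries. Zfp330, Zfp266, Zfp24, Zfp7 and Zfp930 are filled at all 4 times, whereas Zfp750, Zfp874a, Zfp385a, Zfp738 and Zfp777 are filled at 12 h alone, and the 4 h point of Zfp408 rests on 3 converted reads with dTAG-13.

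New and total RNA at 12 h came from separate libraries, with separate controls. Of the members tested in both, 30 were lower in both, which was 54.5% of those lower in total RNA and 66.7% of those lower in new RNA. Another 14 were higher in both, 29.2% of those higher in total RNA and 87.5% of those higher in new RNA. The same shares over all genes are not given here, so nothing particular to members is read from these overlaps. Over the 157 members the 2 log2 changes had a Pearson r of 0.85, beside 0.686 over 12609 genes, as a description over genes of the same cell line. In 95 members (60.5%) the change in new RNA was the lower of the 2, as it was in 52.4% of genes. Zfp84 and Zfp869 were called in opposite directions. Zfp869 had 62.6 and 72.8 CPM with dTAG-13 and 50 and 51.4 CPM with DMSO in total RNA (log2 change 0.42, SE 0.0909). In new RNA it had 127 and 125 CPM with dTAG-13 and 174 and 199 CPM with DMSO (log2 change -0.56, SE 0.155). Zfp84 changed by 0.48 in total RNA and by -0.69 in new RNA (adjusted p = 0.0495 by edgeR). Both were thus higher in total RNA and lower in new RNA, and 0 members were called the other way round. Zfp296, a stem cell factor, had a log2 change of -0.98 in new RNA (SE 0.223) and of -0.14 in total RNA, where it was not called (adjusted p = 0.241 by edgeR).

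In the GABPB1/GABPB2 line the same direction was seen in fewer members. There 28 fell and 9 rose, beside 9.26% lower and 3.53% higher (12.8% in either direction) of all genes. Among genes of 15 CPM or more 12.9% fell and 4.71% rose, beside 17.7% and 5.7% of members. Zfp410 had 6.48 and 6.64 CPM with dTAG-13 and 23.3 and 24.7 CPM with DMSO (log2 change -1.87, SE 0.118, adjusted p = 8.08e-09 by edgeR). Zfp865 had 9.58 and 10.6 CPM with dTAG-13 and 36.5 and 30.1 CPM with DMSO (log2 change -1.73, SE 0.121). Zfp330 had 18.2 and 17.4 CPM with dTAG-13 and 35.1 and 37.3 CPM with DMSO (log2 change -1.02, SE 0.0942). These 3 were the members lower by more than 2-fold. Zfp266 (-0.81) and Zfp985 (-0.80) came next. Zfp750 had 16.1 and 14.6 CPM with dTAG-13 and 7.80 and 8.30 CPM with DMSO (log2 change 0.94, SE 0.135), and Zfp317 rose by 0.51 on the log2 scale. The smaller increases of Zfp746 (0.38), Zfp354c (0.37) and Zfp1 (0.36) were not called when the 4 libraries of this line were fitted alone. The count higher was 24 without the second DMSO library, 4 without the first DMSO library, 4 without the first dTAG-13 library and 2 without the second dTAG-13 library. The count lower was 16 without the first dTAG-13 library.

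In the GABPB1 line 21 members fell and 1 rose, beside 5.46% lower and 1.28% higher (6.75% in either direction) of all genes. Among genes of 15 CPM or more 7.82% fell and 1.5% rose, beside 13.3% and 0.633% of members. Zfp865 had 18.2 and 16.3 CPM with dTAG-13 and 39.0 and 36.6 CPM with DMSO (log2 change -1.13, SE 0.104, adjusted p = 4.02e-06 by edgeR). Zfp410 had 13.3 and 14.1 CPM with dTAG-13 and 22.4 and 26.1 CPM with DMSO (log2 change -0.82, SE 0.0980). Zfp989 (-0.64), Zfp985 (-0.63) and Zfp981 (-0.55) followed, all genes of the chromosome 4 cluster described below. The single increase was that of Zfp317, with 47.1 and 45.1 CPM with dTAG-13 and 37.4 and 36.7 CPM with DMSO (log2 change 0.32, adjusted p = 0.00998 by edgeR). The count of 21 rested on all 4 libraries. It was 7 without the first DMSO, 5 without the second DMSO, 6 without the first dTAG-13 and 5 without the second dTAG-13 library, and it was 42, with 11 higher, when those 4 libraries were fitted alone. The 1 increase was called without the second dTAG-13 library but not without any other.

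The 3 lines had no library in common, and the shares of calls that they had in common are given for members beside all genes. Of the members lower in the GABPA line, 26 were lower in the GABPB1/GABPB2 line too, 46.4% of the GABPA calls and 92.9% of the GABPB1/GABPB2 calls, beside 38.6% and 91.2% over all genes. All 9 members higher in the GABPB1/GABPB2 line were higher in the GABPA line, 18.8% of its calls, beside 11.8% of the GABPA calls and 82.4% of the GABPB1/GABPB2 calls over all genes. With the GABPB1 line 18 lower calls were shared, 32.1% of the GABPA calls and 85.7% of the GABPB1 calls, beside 22.2% and 89.0% over all genes. In all 3 lines 16 members and 4.23% of all genes fell. The members were Zfp7, Zfp24, Zfp64, Zfp330, Zfp384, Zfp407, Zfp408, Zfp410, Zfp473, Zfp534, Zfp646, Zfp865, Zfp980, Zfp985, Zfp989 and Zfp990. Zfp600 and Zfp981 fell in the GABPB1/GABPB2 and GABPB1 lines and were not called in the GABPA line, where Zfp981 had a level of 2.73 and 3.77 CPM with dTAG-13 and 3.21 and 3.85 CPM with DMSO.

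The difference between responses was tested in the same fit. The GABPA response minus the GABPB1/GABPB2 response was called in 41 members, 14 more positive and 27 more negative in the GABPA line, beside 10.1% and 10.7% (20.7% in either direction) of all genes. Against the GABPB1 line it was called in 63 members, 27 more positive and 36 more negative, beside 12.5% and 13.3% (25.7% in either direction) of all genes. Among genes of 15 CPM or more the shares called in either direction were 30.4% and 36.6%, in that order. Those of members were 25.9% and 39.9%, so no excess particular to members is read from the counts. Both differences use the same GABPA libraries. For Zfp330 the response was -2.78 in the GABPA line, -1.02 in the GABPB1/GABPB2 line and -0.45 in the GABPB1 line. The differences were -1.75 (SE 0.146) and -2.33 (SE 0.137). For Zfp408 the responses were -2.42, -0.60 and -0.40 in the same order of lines, with differences of -1.82 (SE 0.148) and -2.01 (SE 0.143). For Zfp750 they were 3.08, 0.94 and 0.24, with differences of 2.14 (SE 0.197) and 2.84 (SE 0.188). The change was thus larger in the GABPA line than in either other line for Zfp330 and Zfp408. The values of Zfp750 are a description, since the dTAG-13 libraries of the GABPA line admitted it. Zfp865 differed less, with responses of -2.25, -1.73 and -1.13.

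**Figure D4:**
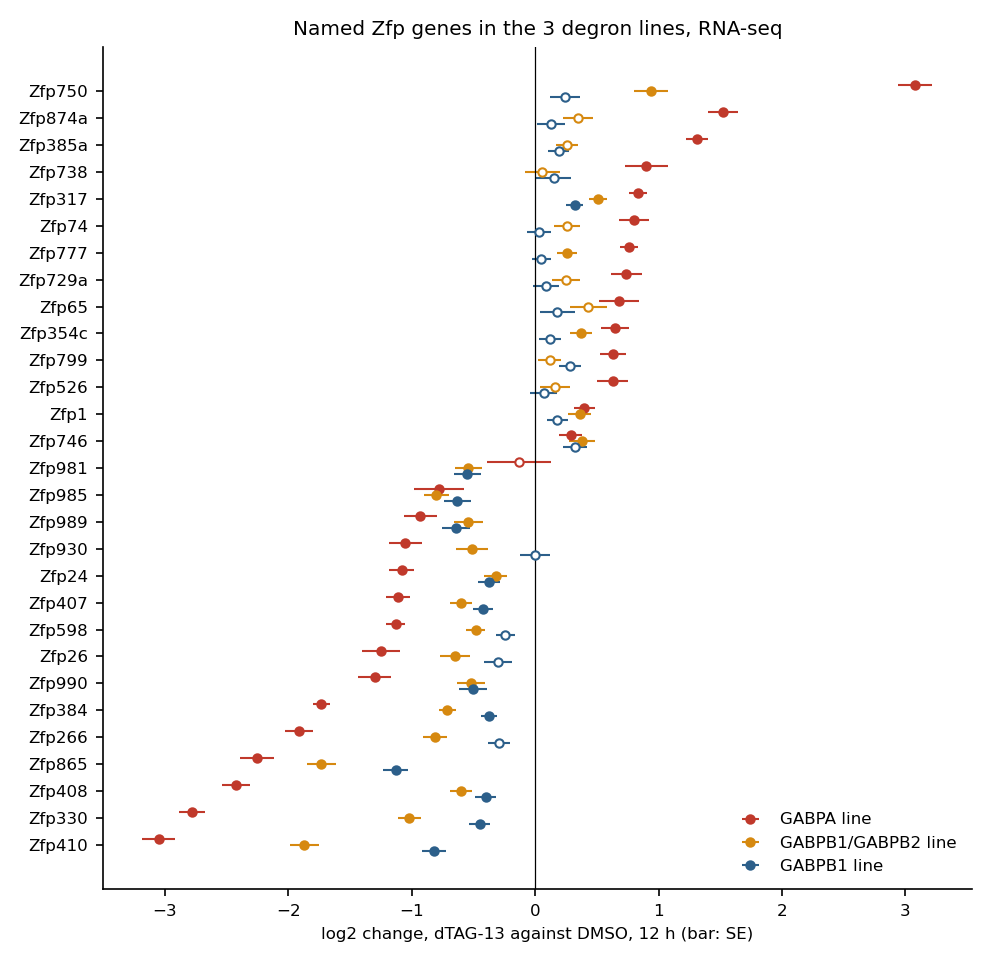
Change in RNA-seq at 12 h (horizontal axis, log2 of dTAG-13 over DMSO, with bars for the SE) of the 29 Zfp genes named for the 3 lines, 2 libraries per group. Filled points passed an adjusted p of 0.05 and open points did not. Zfp330 and Zfp408 change by -2.78 and -2.42 in the GABPA line and by no more than -1.02 in the others, while Zfp985 changes by -0.78, -0.80 and -0.63.

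Zfp genes lie in clusters, and neighbours on chromosomes 4 and 13 differed in their responses. In runs of at least 4 members with neighbours within 1 Mb there were 60 members in 10 runs (coordinates on mm39). The longest, at chr4:145237329-147894245, held 14 members, of which 8 fell and 1 rose in the GABPA line (median -0.45), 9 fell in the GABPB1/GABPB2 line (median -0.39) and 7 fell in the GABPB1 line (median -0.41). In new RNA at 12 h 7 of the 14 fell (median -0.60). Over all genes tested, 21.9%, 9.26% and 5.46% fell in the GABPA, GABPB1/GABPB2 and GABPB1 lines, and 18.3% in new RNA at 12 h. The run was picked out after its values were seen. Zfp990 had 15.8 and 18.9 CPM with dTAG-13 and 46.4 and 39.1 CPM with DMSO in the GABPA line (log2 change -1.30, SE 0.135). Zfp980 had 46.1 and 55.4 CPM with dTAG-13 and 86.0 and 78.8 CPM with DMSO there (log2 change -0.70, SE 0.107). Zfp985 had 2.60 and 3.24 CPM with dTAG-13 and 5.05 and 4.99 CPM with DMSO (log2 change -0.78, SE 0.201). In Zfp992, Zfp988 and Zfp989 of this run 63.3%, 80.9% and 87.1% of SLAM-seq reads matched several places, so that values of these genes may hold reads of their relatives.

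The DMSO levels of this cluster differed between the lines. Zfp981 had 3.21 and 3.85 CPM in the GABPA line, 95.8 and 124 CPM in the GABPB1/GABPB2 line and 78.2 and 79.4 CPM in the GABPB1 line, a 31.2-fold range of line means. The range was 17.2-fold for Zfp991, 15.1-fold for Zfp992, 13.9-fold for Zfp600 and 13.7-fold for Zfp985. Each of these 5 genes was lowest in the GABPA line, with a mean of 3.19 to 9.40 CPM over its 4 libraries before TMM scaling, so the selection admitted them through the other 2 lines. In all, 30 members had a mean under 15 CPM in the GABPA line. These ranges are read from the levels that chose the members. In the run 10 of 14 members differed by more than 2-fold between lines (median 3.20-fold), beside 33 of all 158 members (20.9%, median 1.49-fold) and 16.2% of 7982 genes at 15 CPM or more (median 1.43-fold). These values carry no test, and the tagged subunit and the line's own history cannot be told apart.

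The promoters of the chromosome 4 genes resemble each other. For 9 of the 14 a RefSeq promoter was found, and over their 36 pairs 58.2% to 94.8% of aligned bases were identical (median 74.6%). None of the 9 held CGGAAG, whereas all 9 held GGAAG on either strand, as 73.9% of all genes did. Zfp985 (chr4:147553027-147553326, plus strand) and Zfp979 (chr4:147642459-147642758, minus strand) are shown on GRCm38.p6 to make the likeness visible, with GGAAG in capitals.
Zfp985: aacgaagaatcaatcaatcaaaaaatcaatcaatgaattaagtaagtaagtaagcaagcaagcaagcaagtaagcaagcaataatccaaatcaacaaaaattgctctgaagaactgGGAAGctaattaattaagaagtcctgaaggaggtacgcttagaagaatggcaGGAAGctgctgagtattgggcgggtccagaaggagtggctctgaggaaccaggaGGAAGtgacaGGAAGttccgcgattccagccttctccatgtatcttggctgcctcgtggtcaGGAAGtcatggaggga
Zfp979: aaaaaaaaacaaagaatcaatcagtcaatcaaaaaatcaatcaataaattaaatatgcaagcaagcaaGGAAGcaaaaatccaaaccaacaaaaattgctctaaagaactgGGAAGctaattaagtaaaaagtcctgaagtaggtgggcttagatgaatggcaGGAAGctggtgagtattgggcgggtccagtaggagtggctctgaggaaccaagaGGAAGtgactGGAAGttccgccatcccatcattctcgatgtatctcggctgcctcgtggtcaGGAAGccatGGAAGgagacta

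The run at chr13:67553828-67877292 held 6 members, of which 5 rose and 1 fell in the GABPA line (median 0.71), beside 24.6% higher and 21.9% lower of all genes. Zfp874a, Zfp729b, Zfp729a, Zfp738 and Zfp65 rose, and Zfp459 at its edge fell. The rise of Zfp65 is a description, since dTAG-13 libraries helped to admit it. In the GABPB1/GABPB2 and GABPB1 lines 0 of the 6 were called (medians 0.24 and 0.11), beside 12.8% and 6.75% of all genes in either direction. In new RNA at 12 h 4 rose and 1 fell (median 0.67), beside 12.3% and 18.3% of all genes. The run at chr6:47854138-48063527 held Zfp282, Zfp212, Zfp777 and Zfp746, and all 4 were called higher in total RNA of the GABPA line (median 0.38). The rise of Zfp282 is a description, since the dTAG-13 libraries of that line admitted it. In the GABPB1/GABPB2 line 2 of the 4 rose, beside 3.53% of all genes, and in new RNA at 12 h 1 rose (median 0.63). Of 8 members at chr17:32984470-33850753, 4 rose and 1 fell in total RNA of the GABPA line (median 0.26), whereas in new RNA at 12 h 0 rose and 1 fell (median -0.05). The other runs lay on chromosomes 7 and 8. In total RNA of the GABPA line, 2 rose and 1 fell of 4 members on chromosome 8. In the runs of chromosome 7, in map order, 1 rose and 2 fell of 4, and 0 rose and 2 fell of 4. Then 3 rose and 1 fell of 6, 0 rose and 2 fell of 6, and 1 rose and 3 fell of 4.

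**Figure D5:**
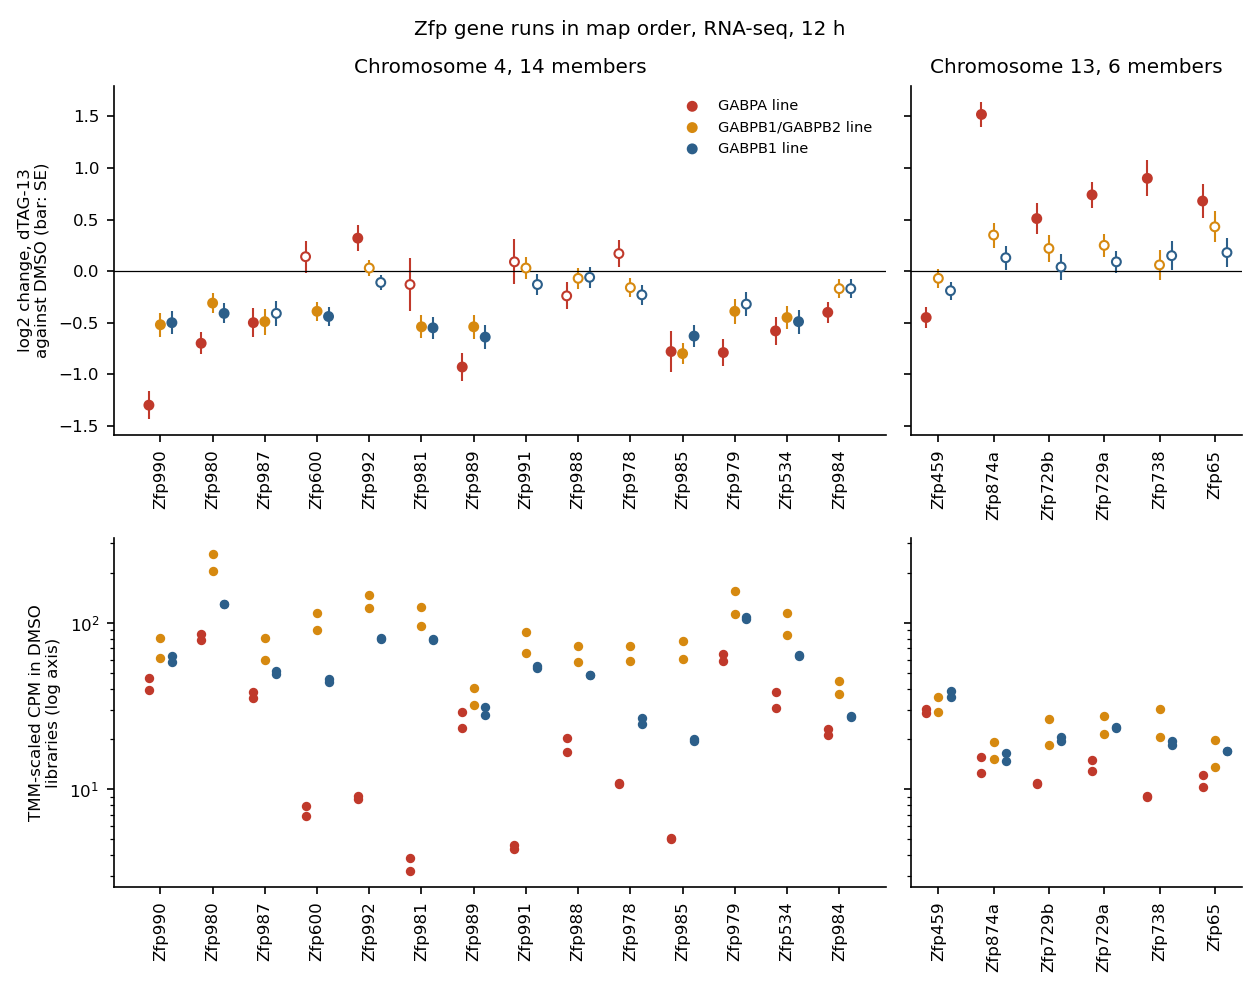
Members of the chromosome 4 run and the chromosome 13 run in map order. The upper panels give the change in RNA-seq at 12 h (log2 of dTAG-13 over DMSO, with bars for the SE, filled where adjusted p was under 0.05) in the 3 lines, and the lower panels the TMM-scaled CPM in the 2 DMSO libraries of each line (log axis). Most chromosome 4 genes lie below 0 in the upper panel and are lowest in the GABPA line in the lower one, while 5 of the 6 chromosome 13 genes lie above 0 in the GABPA line.

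Genes that work with KRAB proteins were counted in total RNA of the GABPA line. Of 24 listed cofactors, which are no Zfp genes, 23 were tested, of which 12 fell and 4 rose (median -0.18), beside 21.9% lower and 24.6% higher of all genes (median 0.06). Pphln1 (-1.93) and Mphosph8 (-0.80), both of the HUSH silencing complex, had the largest decreases, followed by Chaf1b (-0.64), a histone chaperone subunit. The corepressor Trim28 (-0.45) and the methyltransferase Setdb1 (-0.37) fell too. Atf7ip, a partner of Setdb1, rose (0.75), as did Cbx5 (0.36) and Resf1 (0.24). In new RNA at 12 h 6 fell and 1 rose, beside 18.3% lower and 12.3% higher of all genes.

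Other zinc finger families were counted in total RNA of the GABPA line, where 24.6% of all genes rose and 21.9% fell. Of 40 Zbtb genes 11 rose and 10 fell, of 29 Zscan and Zkscan genes 4 rose and 8 fell, and of 25 Klf and Sp genes 9 rose and 5 fell. Of the 211 Zfp genes under 15 CPM that could be tested, 44 rose and 62 fell. In new RNA at 12 h 4 of 184 such low genes rose and 53 fell, beside 12.3% higher and 18.3% lower of all genes. The shares over all genes under 15 CPM are not given here, so nothing particular to the low Zfp genes is read from these counts. The differences between families were not tested. Of the 3 genes left out by name, Zfp365 rose (2.57), Zfp622 fell (-1.62) and Zfp42 did not pass the test (-0.08).

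Zfp genes have close relatives, so reads can be assigned to the wrong gene. In SLAM-seq the median member had 1.54% of reads that matched several places, beside 1.05% over all genes tested, and 21 of 158 members had more than 10%. Of the genes named above and outside the chromosome 4 run, these were Zfp410 (57.0%), Zfp354c (17.5%), Zfp212 (16.5%), Zfp330 (13.2%), Zfp26 (12.4%) and Zfp384 (10.9%). Those of the run included Zfp981 (40.4%) and Zfp980 (35.7%). Zfp969, with 100% such reads, was not tested in SLAM-seq. Among the 137 members with at most 10% such reads, 44 rose and 46 fell in total RNA of the GABPA line. In new RNA at 12 h 16 of them rose and 36 fell.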

How the data were processed

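Of 92 samples in the labels, 26 were used here, 12 RNA-seq and 14 SLAM-seq libraries, grouped by title. The other 66 were not used here. The deposited RNA-seq tables hold expected counts and TPM per gene by RSEM, per the file headers. Tools named in the submitters' processing notes include cutadapt 3.5, RSEM 1.3.1, slamdunk 0.4.3 and STAR 2.7.11a. The deposited SLAM-seq tables hold 4 counts per gene interval (all reads, converted reads, covered T bases and converted T bases), made with slamdunk per the file headers. The authors' tables also give other per-gene values, namely the RSEM posterior spread of the count and the fraction of multimapping reads, which served only to describe read assignment. No source used here says how strand was handled in counting.

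Expected counts were rounded and tested with edgeR 4.0.16 (R 4.3.3, quasi-likelihood, TMM, filterByExpr set to 10 counts and 15 in total), with 1 fit per assay over all its groups. P-values were Benjamini-Hochberg adjusted over all genes tested and called under 0.05, so they rest on a spread shared by all groups. Fits were tested on simulated data. DESeq2 1.42.0 was an alternative, beside its size factors, other filters, fits of the compared libraries alone, a replicate block, each library left out and, for SLAM-seq, all reads in place of converted reads. The members and the role lists were chosen with earlier results of these data known. Genes were named by rules of size or smallest p within each comparison, membership in a role list, or the highest and lowest level. Conversions per T, members with at most 10% multimapping reads and the motif GGAAG were added after the data were seen. Protein sequences were not used here. Replicate numbers did not pair the libraries. The value of 1 gene of the cofactor list is not reported here.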

Additional observations from a re-analysis of the deposited data

Results flagged for a closer look

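The response of the Zfp genes below, Zfp750 apart, differed between lines by a test of the difference in the edgeR fit (log2 scale, Benjamini-Hochberg adjusted p under 0.05). Zfp750 was admitted through the dTAG-13 libraries of the GABPA line, so its differences between lines are given as a description. For the GABPA response minus the GABPB1/GABPB2 response, the difference was 2.14 for Zfp750, 1.17 for Zfp874a, 1.04 for Zfp385a, 0.58 for Zfp41 and 0.50 for Zfp777. It was -1.82 for Zfp408, -1.75 for Zfp330, -1.18 for Zfp410, -1.10 for Zfp266 and -1.01 for Zfp384. For the GABPA response minus the GABPB1 response, it was 2.84 for Zfp750, 1.39 for Zfp874a, 1.12 for Zfp385a, 0.74 for Zfp84 and 0.72 for Zfp777. It was -2.33 for Zfp330, -2.23 for Zfp410, -2.01 for Zfp408, -1.62 for Zfp266 and -1.35 for Zfp384.

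In new RNA of the GABPA line, the response at 12 h minus that at 1 h was 2.39 for Zfp750, again given as a description. It was -2.91 for Zfp410, -1.96 for Zfp407, -1.67 for Zfp330, -1.41 for Zfp819 and -1.36 for Zfp266. These are the members with the smallest p in each direction.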

How the results depend on the processing

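The 92 single-gene results were recomputed under the alternative settings, which gave 1054 values. Of these values, 999 kept their direction and call, 54 kept the direction and lost the call, and 1 reversed. The reversed value was the 12 h minus 1 h difference of Zfp407 in SLAM-seq, which was 0.07 when all reads were used in place of converted reads. Causes were not tested. With all reads, which dilute new RNA with older RNA, the median of all genes at 12 h moved by -0.28, and the members lower were 0 at 1 h, 4 at 2 h and 69 at 12 h, with 47 called for 12 h minus 1 h and 0 higher at 4 h. Fitted alone, the GABPB1 libraries gave 11 higher and 42 lower (20.8% higher among calls, against 4.55%), the GABPB1/GABPB2 libraries 2 higher and 21 lower (8.70% against 24.3%), and the 4 h libraries 0 higher. DESeq2 gave 0 higher at 4 h, and at 12 h 7 higher and 38 lower (15.6% against 26.2%). With no low-count filter 0 were higher at 4 h, 10 at 12 h and 3 in the GABPB1 line, where DESeq2 size factors gave 2 and an average log2 CPM of at least 3 gave 3.

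Leaving out 1 library at a time, members higher and lower in RNA-seq were 34 to 44 and 49 to 51 (GABPA), 2 to 24 and 16 to 34 (GABPB1/GABPB2), and 0 to 1 and 5 to 7 (GABPB1). In SLAM-seq they were 0 to 0 and 2 to 5 at 1 h, 0 to 1 and 5 to 6 at 2 h, 0 to 0 and 6 to 8 at 4 h, and 6 to 18 and 31 to 32 at 12 h. Calls on differences were 28 to 55 against GABPB1/GABPB2, 44 to 57 against GABPB1 and 5 to 9 for 12 h minus 1 h. With a replicate block the counts higher and lower were 48 and 56, 9 and 28, and 1 and 21 in RNA-seq of the same lines, and 0 and 5, 0 and 8, 1 and 10, and 17 and 46 in SLAM-seq. The block changed 0 of the 92 single-gene calls. Same-numbered libraries deviated together with correlations of -0.114 to 0.116 in RNA-seq and -0.0852 to 0.294 in SLAM-seq, so the numbers were not taken as pairs. The median converted share at 2 to 4 h with DMSO was 31.7% at a minimum of 100 reads, against 31.5%. The share of members with a promoter motif was 36.6% for CGGAAG and 83.7% for GGAAG, against 20.3% for CCGGAAG. DESeq2 gave no adjusted p for 7, 7 and 6 members at 1, 2 and 4 h. The size of change that 0.94 to 4.25 M converted reads per library can show was not tested.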
